A study of Mus musculus with 20 samples.

Results

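Transcripts of the adult globin genes and of other genes of the red cell lineage were examined in primary tumours and lung metastases of the 4T1 breast cancer (BC) model. The set was chosen by name and listed 7 genes: the alpha globin genes Hba-a1 and Hba-a2, the beta globin genes Hbb-b1 and Hbb-b2, Alas2, Slc4a1 and Klf1. Of these, 6 had values for the BC libraries, among 15465 named genes in all, and 5 passed the filter on low values and were tested. Slc4a1 did not pass the filter and is described by its reads, and Klf1 was not analysed here.

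Haemoglobin is a tetramer of alpha-type and beta-type globin chains, each of which binds a haem group. Red cell precursors in the bone marrow, and in mice also in the spleen, fill with globin transcript before they lose the nucleus, and reticulocytes, the young red cells, still carry that transcript into the blood. Alas2 encodes the erythroid form of 5-aminolevulinate synthase, which catalyses the entry step of haem synthesis, Slc4a1 encodes band 3, the chloride and bicarbonate exchanger of the red cell membrane, and Klf1 encodes a transcription factor that binds CACCC elements of the adult beta globin promoter. In a piece of tissue these transcripts can come from blood in its vessels and from red cell precursors.

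The samples were 4 primary tumours and 4 lung metastases, labelled as 4T1 derived and taken at 28 days from orthotopic mouse models; 4T1 is a mouse mammary carcinoma line, so all tumours go back to a single line. The titles pair each metastasis with the primary tumour of the same mouse, numbered 1 to 4 here. The labels give no strain, sex or perfusion of the mice. The pancreatic tumours of the series (12 libraries of 20) were not used, because their values are not aligned to the gene names. RNA of whole tissue pieces was sequenced, so each value is a mixture over cell types, and fewer cells of a type cannot be told apart from less RNA per cell. Depth was 15447918 to 28995834 reads per library, lowest in the lung metastasis of mouse 3. Values are normalised read counts, on a scale where the BC columns sum to 962401 to 1044330, and 1 read was worth 0.0337 to 0.0676. Fold changes are log2 differences of (value + 1), lung metastasis minus primary tumour, from limma, with p-values adjusted over 14003 genes by the Benjamini-Hochberg method.

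All 5 tested genes were higher in lung metastases, with log2 changes of 4.42 to 5.56 and a median of 5.41, beside a median of -0.06 over all tested genes. As background, 9.13% of all tested genes were called at an adjusted p under 0.05, 7.18% higher and 1.96% lower. In all 5 the lowest metastasis lay above the highest primary tumour, by 9.95 to 16.3 times; over all tested genes, 10.4% had every metastasis above every primary tumour and 1.9% had a gap of more than 5 times. The alpha and beta globin genes together took 0.201% to 0.903% of all reads of a metastasis and 0.00505% to 0.0162% of those of a primary tumour. The highest share, in the metastasis of mouse 3, had a 95% Wilson interval of 0.898% to 0.907%, and the lowest, in the primary tumour of mouse 3, one of 0.0048% to 0.00532%. Such intervals cover the counting error of reads in 1 library only, not differences between mice. The reads carry no molecular identifiers, so the intervals can be too narrow even for that.

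The upstream sequences of the genes that moved together are shown because this is where the erythroid factors are known to act. RefSeq's promoter table (GRCm38.p6, the C57BL/6J genome, a later build than that of the deposited values) held 5 of the 6 genes. The identifiers beside Hbb-b1 and Hbb-b2 carry the symbols Hbb-bs and Hbb-bt in that table, the adult beta genes of the haplotype in the reference strain. The last 200 bases before the start site are given 5′ to 3′ on the gene's strand, with matches on either strand in capitals: the core GATAA of Gata1 sites, the core CACCC of Klf1 sites, its longer form CCACACCC (which contains that core), the box CCAAT and the TATA-type element ATATAA.
Hba-a1, chr11:32283472-32283671 (+): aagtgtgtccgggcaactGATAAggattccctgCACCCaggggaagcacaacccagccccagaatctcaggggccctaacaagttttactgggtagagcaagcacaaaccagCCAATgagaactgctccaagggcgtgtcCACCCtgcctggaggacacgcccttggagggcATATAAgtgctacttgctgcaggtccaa
Hbb-b1 (Hbb-bs), chr7:103827929-103828128 (-): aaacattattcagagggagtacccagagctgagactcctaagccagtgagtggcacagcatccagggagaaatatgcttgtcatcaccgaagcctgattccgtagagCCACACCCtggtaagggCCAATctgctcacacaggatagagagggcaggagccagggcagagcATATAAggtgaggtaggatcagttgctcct
Hbb-b2 (Hbb-bt), chr7:103813924-103814123 (-): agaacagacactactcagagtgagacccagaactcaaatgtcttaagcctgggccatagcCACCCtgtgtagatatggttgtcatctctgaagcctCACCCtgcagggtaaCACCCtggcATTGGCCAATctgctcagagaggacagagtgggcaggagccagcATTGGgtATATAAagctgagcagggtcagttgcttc
Alas2, chrX:150547217-150547416 (+): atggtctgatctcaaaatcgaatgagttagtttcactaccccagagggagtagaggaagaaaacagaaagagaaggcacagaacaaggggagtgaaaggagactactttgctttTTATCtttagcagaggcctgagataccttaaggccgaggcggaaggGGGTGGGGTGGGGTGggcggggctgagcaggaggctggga
CACCC was found in the window of all 5 genes, and in 45.5% of 32851 promoter windows of this length. The longer CCACACCC was found in Hbb-b1 alone among the 5, 93 bases before the start, and in 2.72% of all windows. GATAA was found in Hba-a1, Hba-a2 and Alas2, on the reverse strand in Alas2, and in 18.1% of windows. CCAAT was found in the 4 globin genes and in 29.3% of windows. ATATAA stood with its first base 28 to 31 bases before the start of the 4 globin genes and was found in 7.3% of windows. The entries of Hba-a1 and Hba-a2 were identical over 297 of their 300 bases, offset by 3. These matches describe the letters of the window and say nothing on the binding of a factor.

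The alpha globin genes encode the same type of chain from neighbouring copies. Hba-a1 (ENSMUSG00000069919) stood at 15.0, 4.42, 6.07 and 4.33 in the primary tumours of mice 1 to 4 and at 166, 149, 1479 and 289 in their lung metastases. The metastasis of mouse 3 was 5.11 times the next one, and the primary tumour of mouse 1 was the highest of its group. The log2 change was 5.41 (SE 0.657, adjusted p = 0.00068), from 7.46 ± 5.1 in primary tumours to 521 ± 642 in metastases (SD, n = 4). Hba-a2 (ENSMUSG00000069917) stood at 12.8, 2.8, 5.23 and 3.52 in the primary tumours and at 200, 148, 772 and 241 in the metastases, again highest in mouse 1 and in mouse 3. Its log2 change was 5.46 (SE 0.523, adjusted p = 0.000181), from 6.09 ± 4.59 to 340 ± 290. How far the copies can be separated is shown by their coding sequences in GENCODE M21 (GRCm38), which differ at 1 of 426 bases without the stop codon, C381T, counted from the A of the start codon with the base of Hba-a1 first. The stretch from base 337 to 411 is printed with that base in capitals.
Hba-a1: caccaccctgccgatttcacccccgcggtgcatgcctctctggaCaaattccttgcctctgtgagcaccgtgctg
Hba-a2: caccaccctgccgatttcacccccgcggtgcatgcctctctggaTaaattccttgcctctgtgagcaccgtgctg
Of the 50-base windows of the Hba-a2 transcript, 86.9% occurred letter for letter in the Hba-a1 transcript. The separate values of the 2 genes therefore depend on how reads that fit both were counted, which is not given in the sources used here.

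The beta globin genes had the highest and the lowest level among the globins. Hbb-b1 (ENSMUSG00000052305) stood at 131, 45.8, 35.7 and 57.1 in the primary tumours of mice 1 to 4 and at 1793, 1571, 6906 and 3316 in the lung metastases. It had the largest rise of the set, 5.56 (SE 0.501, adjusted p = 0.000127), and ranked 26 of 14003 genes by the size of the rise. Hbb-b2 (ENSMUSG00000073940) stood at 6.16, 2.01, 2.36 and 4.12 in the primary tumours and at 80.7, 69.5, 269 and 153 in the metastases. Its log2 change was 4.83 (SE 0.437, adjusted p = 0.000127), from 3.66 ± 1.9 to 143 ± 91.6. Both were highest in the metastasis of mouse 3, followed by mice 4, 1 and 2, an order that both alpha genes shared. In the reference annotation the 2 coding sequences also differ at 1 base, C417T of 441, with the base of Hbb-b1 first. It lies near the 3′ end, in the stretch from base 373 to 441.
Hbb-b1: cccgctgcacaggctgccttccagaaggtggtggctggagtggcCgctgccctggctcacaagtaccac
Hbb-b2: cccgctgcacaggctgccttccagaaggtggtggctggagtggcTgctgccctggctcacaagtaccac
The coding sequences shared more 50-base windows than those of the alpha pair, 93.6% against 87.8%, and the transcripts as a whole fewer, 58.3%. Alpha and beta sequences (Hba-a1 and Hbb-b1) shared 0 such windows. The separate values of Hbb-b1 and Hbb-b2 also depend on how reads that fit both were counted. These sequences are those of the reference strain, and the labels give no strain for the mice.

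Alas2 (ENSMUSG00000025270) showed the same separation at a lower level. It stood at 1.83, 0.907, 1.75 and 1.27 in the primary tumours of mice 1 to 4, or 23 to 52 reads, and at 29.7, 30.6, 196 and 35.9 in the lung metastases. The metastases of mice 1, 2 and 4 lay close together and that of mouse 3 was 5.44 times the highest of them. The log2 change was 4.42 (SE 0.543, adjusted p = 0.000707), from 1.44 ± 0.433 to 73 ± 81.8. Without the metastasis of mouse 3 the log2 change was 3.77 (adjusted p = 1.5e-05).

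Slc4a1 (ENSMUSG00000006574) was close to the limit of detection. It had 5, 0, 0 and 0 reads in the primary tumours of mice 1 to 4 and 74, 7, 215 and 45 reads in the matched metastases, values of 0.199, 0, 0 and 0 against 2.93, 0.249, 14.5 and 1.89. The metastasis of mouse 3 held 63% of the reads of its group. The 7 reads in the metastasis of mouse 2 (exact Poisson 95% interval 2.81 to 14.4) and the 5 in the primary tumour of mouse 1 (1.62 to 11.7) were not distinguishable at this depth, whereas the intervals of the other 3 metastases lay above those of every primary tumour. With primary tumours under 3 reads set to a floor of 3 reads per library, the ratio of the means was 37.4. Tested without the filter, its log2 change was 1.88 (SE 0.624) and did not pass (limma adjusted p = 0.0934; as background, 6.9% of 15465 genes were called higher in that fit). It passed with edgeR (adjusted p = 0.0417) and DESeq2 (0.000172) on the recovered reads, and with limma without the metastasis of mouse 2 (0.0291); the range over its alternatives was 0.000172 to 0.208.

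**Figure D1:**
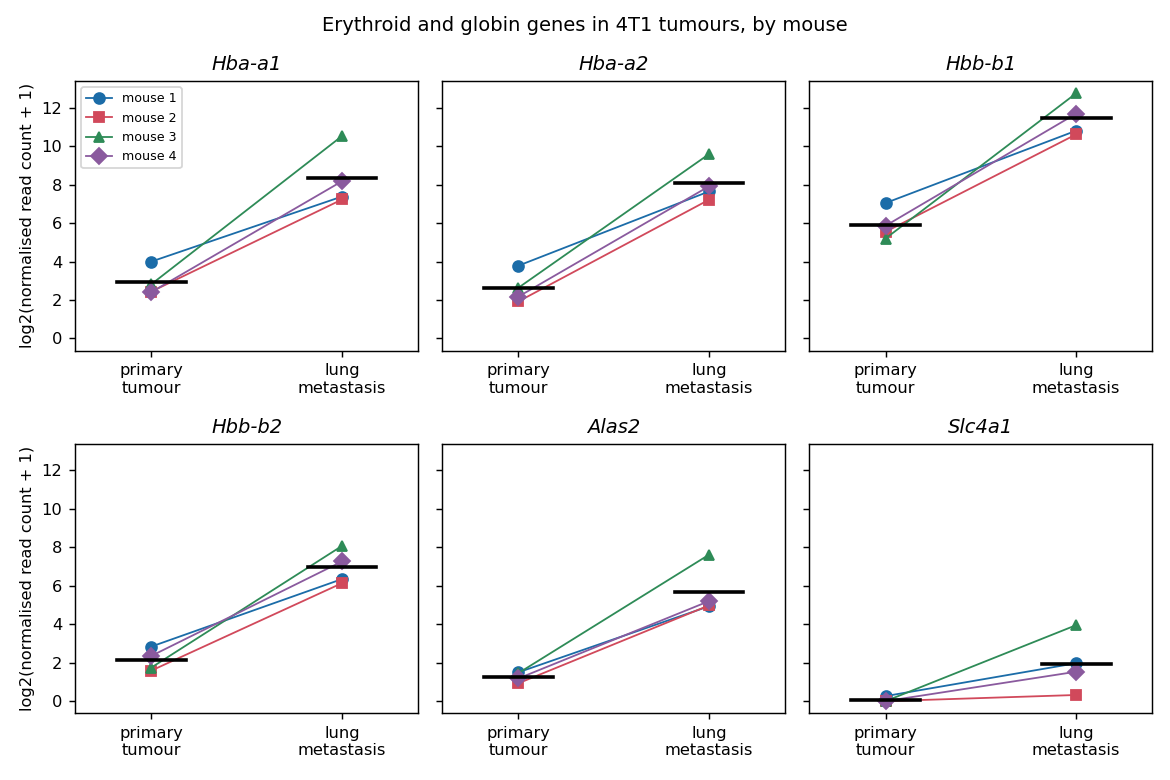
Log2(normalised read count + 1) of the 6 genes in primary tumours and lung metastases; each line joins the tissues of 1 mouse and black bars are the means of 4 libraries. Every line rises, and the metastasis of mouse 3 is the highest library in every panel (Hbb-b1 6906, Alas2 196, Slc4a1 14.5).

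Levels were compared between genes per kilobase of the longest GENCODE M21 coding transcript. In lung metastases Hbb-b1 had the highest level per kilobase, 5408 ± 3925, followed by Hba-a1 (745 ± 918), Hba-a2 (614 ± 523), Hbb-b2 (204 ± 130), Alas2 (35.8 ± 40.2) and Slc4a1 (1.08 ± 1.43). Within each metastasis Hbb-b1 was above both alpha genes, both alpha genes were above Hbb-b2, Hbb-b2 above Alas2, and Alas2 above Slc4a1. The alpha genes were not separated, as Hba-a2 was the higher per kilobase in the metastases of mice 1, 2 and 4 and Hba-a1 in that of mouse 3 (2116 against 1393). The primary tumours had the same order from Hbb-b1 (107 ± 68.8) to Alas2 (0.706 ± 0.212), again with the alpha genes (10.7 ± 7.3 and 11 ± 8.28) within each other's spread.

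The size of the rise differed between mice. In mouse 1, whose primary tumour had the highest values of all 6 genes, the metastasis was 11.1 to 16.3 times the primary tumour over the 5 tested genes. It was 33.7 to 52.9 times in mouse 2, 112 to 244 times in mouse 3 and 28.3 to 68.4 times in mouse 4. The order of the mice by globin sum was not kept between tissues. In primary tumours the summed value was 165 in mouse 1, 69 in mouse 4, 55 in mouse 2 and 49.4 in mouse 3. In lung metastases it was 9425 in mouse 3, 3999 in mouse 4, 2240 in mouse 1 and 1938 in mouse 2. The rise of the 5 tested genes did not rest on mouse 3: without both of its libraries, an alternative chosen after seeing the data, each was still called, and over all alternatives that gave an adjusted p the largest was 0.00515.

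The ratios between the genes varied from library to library, from 3.19 to 7.79 for beta to alpha globin and from 0.83 to 1.92 for Hba-a1 to Hba-a2. Ratios of reads were compared between the tissues by an exact two-sided permutation test over the 8 libraries, which cannot go below p = 0.0286. With adjustment over 4 ratios, a single ratio at that limit has an adjusted p of 0.114 and cannot pass, so these tests do not show that a ratio was the same in both tissues. Beta globin reads outnumbered alpha globin reads in every library. The ratio was 4.93, 6.62, 3.37 and 7.79 in the primary tumours of mice 1 to 4 and 5.11, 5.51, 3.19 and 6.55 in their metastases (mean log2 difference -0.13, exact permutation p = 0.686, adjusted over 4 ratios 0.743). Mouse 3 had the lowest ratio in both tissues and mouse 4 the highest in both, with mice 1 and 2 between them in the same order; the intervals for counting error were 2.99 to 3.81 and 3.15 to 3.23 in mouse 3, and 6.78 to 8.95 and 6.42 to 6.67 in mouse 4. This order of mice was noticed in the data and has no test. A read ratio is not a ratio of chains, since the genes differ in length and in how shared reads were counted.

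Hba-a1 to Hba-a2 was 1.17, 1.58, 1.16 and 1.23 in the primary tumours and 0.83, 1.01, 1.92 and 1.2 in the metastases (log2 difference -0.11, exact permutation p = 0.743, adjusted 0.743). Hbb-b1 to Hbb-b2 was 21.3, 22.8, 15.1 and 13.8 in the primary tumours and 22.2, 22.6, 25.7 and 21.6 in the metastases. Its log2 difference was 0.37, positive in 4 of 4 mice on the scale used for the test (0.5 reads added), and did not pass (exact permutation p = 0.0857, adjusted 0.343). Alas2 had 1.11, 1.65, 3.55 and 1.84 reads per 100 globin reads in the primary tumours and 1.33, 1.58, 2.07 and 0.898 in the metastases (log2 difference -0.42, exact permutation p = 0.4, adjusted 0.743). Slc4a1 had 1.31, 0.128, 1.54 and 0.473 reads per 1000 globin reads in the metastases, so it was uneven relative to globin, and 1.21 in the primary tumour of mouse 1; with 0 reads in the other primary tumours it was not tested.

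**Figure D2:**
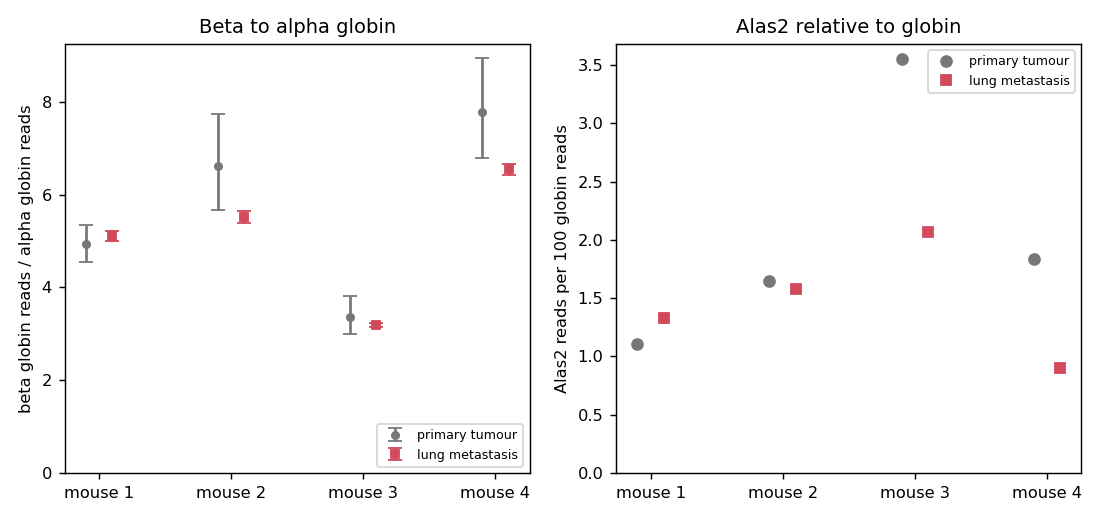
Left, beta globin reads divided by alpha globin reads in each library with 95% Wilson intervals for counting error; right, Alas2 reads per 100 globin reads. Circles are primary tumours and squares lung metastases of the 4 mice. The beta to alpha ratio is lowest in both tissues of mouse 3 (3.37 and 3.19) and highest in both of mouse 4 (7.79 and 6.55).

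Of 15 other tested genes of haem synthesis, 0 passed in limma in either direction, with a median log2 change of 0.08; 2 had an unadjusted p under 0.05, and 0 passed in edgeR and 1 in DESeq2. Alas1, the ubiquitous counterpart of Alas2, stood at 104 ± 67.4 in metastases and 36 ± 8.91 in primary tumours with no overlap (log2 change 1.33, adjusted p = 0.0526), and passed in a fit blocked by mouse (adjusted p = 0.0435), without the metastasis of mouse 3 (0.0317) or 4 (0.0158) and without both libraries of mouse 3 (0.0423; all alternatives gave 0.00344 to 0.138). Ferrochelatase, Fech, which inserts iron into the porphyrin ring, stood at 49.2 ± 13 against 37.9 ± 5.44 (adjusted p = 0.364). Alad, an early enzyme of the pathway, stood at 86.8 ± 6.92 against 67.2 ± 8.9 (adjusted p = 0.181). These enzymes are made in all cells that build haem.

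Of 9 tested genes of the red cell membrane and skeleton 3 rose and 0 fell (median 0.66). Spna1, alpha spectrin of the red cell skeleton, had 0 reads in the 4 primary tumours and 407 in the metastases. Its values were 2.29, 1.42, 16.1 and 2.98 in the metastases of mice 1 to 4. It was at least 51.3-fold higher with a floor of 3 reads per library, and rose in limma (adjusted p = 0.0261). Spna1 passed the filter only through the metastases, where it is high, so its test is not independent of its selection. Its call ended without any 1 of the 4 primary tumours (0.057 to 0.0759) and when 5 was added before taking logs (0.119; all alternatives gave 5.74e-10 to 0.119). Tmod1, the tropomodulin that caps red cell actin filaments, stood at 8.16 ± 7.18 against 0.526 ± 0.481 (adjusted p = 0.0151), and did not pass without the primary tumour of mouse 1 or 4 (0.053 and 0.0533; 0.000407 to 0.0533 over its alternatives). Aqp1, a water channel of red cells that capillary endothelium makes as well, stood at 362 ± 190 against 85.8 ± 26.5 (adjusted p = 0.00336). Epb4.9, the dematin gene, stood at 20.7 ± 5.24 against 42.1 ± 15.1 (adjusted p = 0.068), and passed as lower with array weights (0.0386) and DESeq2 (0.021; 0.021 to 0.212 over its alternatives).

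Of 10 tested erythroid transcription factor genes 3 rose and 1 fell (median 0.8). Gata2, a factor of blood progenitors that endothelium also expresses, stood at 56 ± 53.4 against 4.52 ± 0.834 (adjusted p = 0.00608), and Nfe2, a factor of red cells and megakaryocytes, at 47.7 ± 36 against 5.52 ± 4.47 (adjusted p = 0.00824). Sox6 stood at 2.14 ± 1.23 against 0.227 ± 0.299 (adjusted p = 0.0412; alternatives 0.00706 to 0.146, blocked by mouse 0.0554), and the cofactor gene Ldb1 fell from 194 ± 12.1 to 132 ± 14.4 (adjusted p = 0.0386; alternatives 0.00157 to 0.132, blocked by mouse 0.0889). Sox6 was not past the threshold without the metastasis of mouse 1 or 2 or the primary tumour of mouse 1, 3 or 4 (0.0729 to 0.131), nor Ldb1 without the metastasis of mouse 1 or 2 or any 1 primary tumour (0.0606 to 0.132). Sox6 also passed the filter only through the metastases, with every primary tumour under a value of 1. Gata1, the factor that red cell precursors and megakaryocytes depend on, did not pass the filter, with 17, 1, 4 and 0 reads in the primary tumours and 60, 18, 76 and 0 in the metastases. The metastasis of mouse 4 thus had 0 Gata1 reads (floor of 3 reads, a value of 0.126) beside the next-to-highest globin sum, 3999. The erythropoietin receptor gene Epor also had 0 reads there, and 32, 3 and 45 in the metastases of mice 1 to 3. Gata1 and Epor were named after their values were seen.

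Of 9 tested genes of erythropoietin signalling and iron uptake 1 rose and 0 fell (median 0.24); it was Slc40a1, the iron exporter ferroportin of macrophages and other cells, at 116 ± 83 against 18.4 ± 22.3 (adjusted p = 0.0161), whose call ended with edgeR (0.0707) and without the primary tumour of mouse 1, 3 or 4 (0.0546 to 0.0612; 0.0012 to 0.0707 over its alternatives). The stem cell factor receptor gene Kit stood at 54.6 ± 41.1 against 15.8 ± 12.1 (adjusted p = 0.0874). It passed with DESeq2 (0.0214), with array weights (0.018) and without the metastasis of mouse 4 (0.0382) or the primary tumour of mouse 2 (0.0351; 0.018 to 0.242 over its alternatives). Of 9 genes for the clearance of haemoglobin and haem 1 rose and 0 fell (median -0.11). The haptoglobin gene Hp stood at 638 ± 453 against 75.5 ± 47.3, and Cd163, the receptor for its complex with haemoglobin, at 11.8 ± 8.96 against 32.6 ± 17.7, without passing (adjusted p = 0.155; 0.0307 with array weights, where it passed as lower, and 0.0307 to 0.341 over its alternatives). Haptoglobin is also made by neutrophils and lung cells.

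Of 13 tested genes of late red cell enzymes and remodelling 3 rose and 0 fell (median 0.27). The carbonic anhydrase gene Car2 stood at 31.7, 28.5, 52.3 and 26.7 in the metastases of mice 1 to 4 and at 3.7, 6.31, 2.53 and 2.18 in their primary tumours (log2 change 2.96, SE 0.333, adjusted p = 0.000457). Ube2l6, a conjugating enzyme for the ubiquitin-like protein Isg15, stood at 92.5 ± 40.5 against 33.4 ± 10.2 (adjusted p = 0.0215; blocked by mouse 0.0588). It was not past the threshold without the metastasis of mouse 1 (0.0577) or the primary tumour of mouse 3 (0.0542; 0.000908 to 0.0588 over its alternatives).

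**Figure D3:**
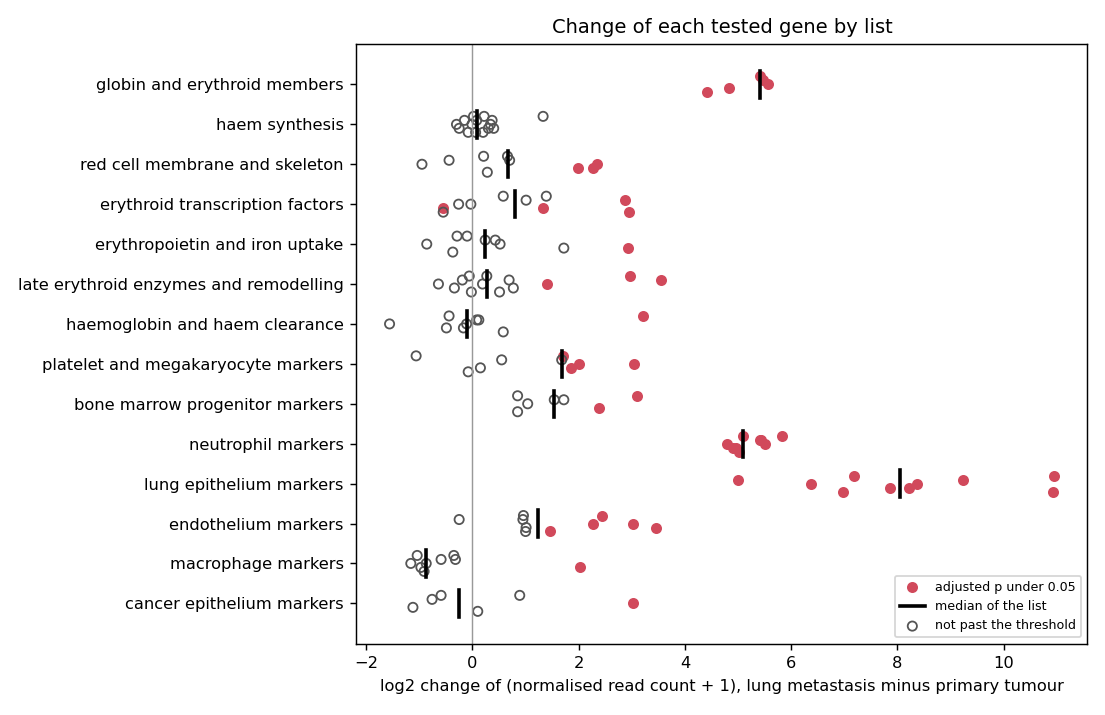
Log2 change (lung metastasis minus primary tumour) of each tested gene, 1 row per list; filled points have an adjusted p under 0.05 and black bars are list medians. The 5 globin and erythroid genes lie between 4.42 and 5.56, whereas the haem synthesis list is centred at 0.08 with 0 filled points.

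Markers of lung epithelium and of neutrophils rose with the globin genes between tissues, while lists of other cell types did so in part or not. All 10 lung epithelium markers rose (median 8.04), from 9.81 to 26.2 summed reads per 1000000 in primary tumours to 7373 to 33411 in lung metastases. Of these, Sftpa1, Sftpb, Sftpd, Lamp3, Slc34a2 and Cldn18 passed the filter only through the metastases. All 9 neutrophil markers rose (median 5.1), from 202 to 1204 reads per 1000000 to 7905 to 27982. Of 10 endothelium markers 5 rose (median 1.24), and their sums overlapped, 180 to 830 against 533 to 2306. The 9 tested macrophage markers had a median of -0.87, with 1 higher. The cancer epithelium markers summed to 1433 to 2751 in primary tumours and 932 to 3217 in metastases. Normal lung epithelium makes these genes too, so the sum does not separate cancer cells from lung cells in the metastases. The part of these cell types in the globin result was not tested.

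The lists did not follow the globin genes in every library. The metastasis of mouse 4 had the next-to-highest globin sum and the lowest sums of lung epithelium (7373 reads per 1000000) and endothelium (533). The primary tumour of mouse 2 had the highest endothelium (830) and neutrophil (1204) sums of its group and a member sum of 56.3, whereas the primary tumour of mouse 1, with the highest member sum (164), had the lowest endothelium sum (180). In the metastasis of mouse 3 the sums of the members, lung epithelium, neutrophil and endothelium markers were all the highest. Platelet genes, carried by blood as red cells are, rose in 4 of 9 tested cases (median 1.68): Itga2b (23.7 ± 9.74 against 5.06 ± 1.84, adjusted p = 0.00334), Clec1b (10.8 ± 8.39 against 0.148 ± 0.172, adjusted p = 0.00518), Gp5 (2.57 ± 0.802 against 0.0795 ± 0.159, adjusted p = 0.00641) and Tubb1, with 0 reads in the primary tumours and at least 26.7-fold higher (adjusted p = 0.0138). Clec1b, Gp5 and Tubb1 passed the filter only through the metastases, so their calls are not independent of their selection. Pf4, platelet factor 4, named after its values were seen, stood at 31.8 ± 17.8 against 73.5 ± 62.1 and did not pass (adjusted p = 0.248). The summed reads of the platelet list overlapped between tissues, 46.6 to 187 per 1000000 in primary tumours and 75.6 to 106 in metastases. Of 7 marrow progenitor markers 2 rose (median 1.54). Mpo, myeloperoxidase, stood at 20.4 ± 16.8 against 1.43 ± 1.65 (adjusted p = 0.0065). Ctsg, cathepsin G, stood at 13 ± 10.2 against 1.49 ± 1.23 (adjusted p = 0.0222; 0.00237 to 0.104 over its alternatives, 0.0575 without both libraries of mouse 3, 0.104 with edgeR). Its call also ended without the metastasis of mouse 1 or the primary tumour of mouse 3 or 4 (0.0606 to 0.0695).

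**Figure D4:**
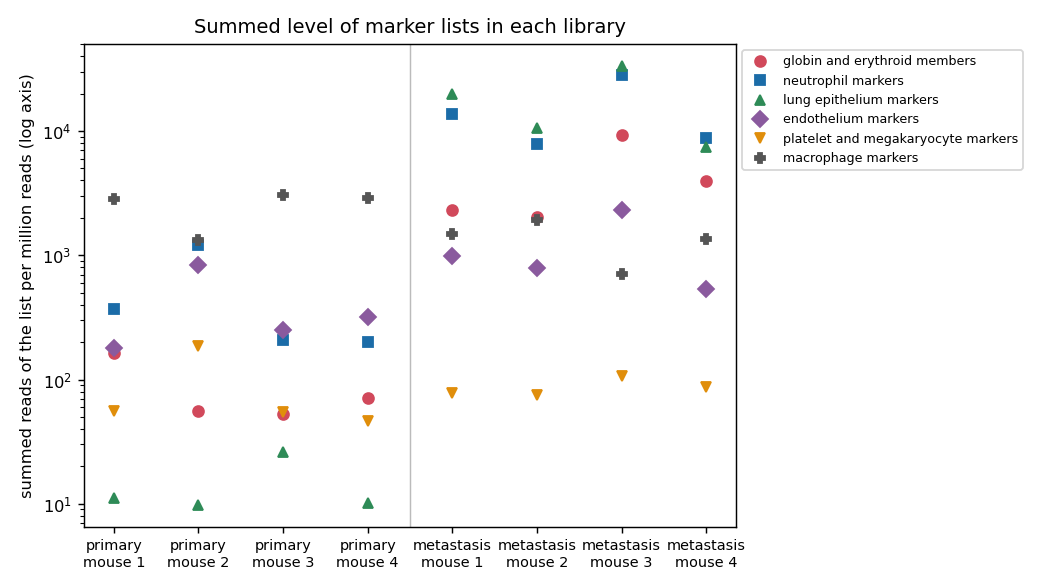
Summed reads of 6 gene lists per 1000000 reads in each of the 8 libraries, on a log axis; each point is 1 library. The globin and erythroid genes stand at 52.3 to 164 in primary tumours and 2046 to 9227 in lung metastases, while the endothelium sums of the tissues overlap.

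The genes whose profile over the 8 libraries was nearest to that of the globins were neutrophil granule genes. Distance was the root mean square difference of log2(value + 1) from the mean of the 4 globin genes, each profile centred on its own mean, over the tested genes outside the set. Ngp (0.4), Camp (0.44) and Ltf (0.54), which encode proteins of neutrophil granules, came first, then Scn7a, a sodium channel family gene, and Scnn1b, a subunit of the epithelial sodium channel (both 0.58). The 4 globin genes lay at 0.21 to 0.35 from a mean that contains them, Alas2 at 0.61 and Slc4a1 at 1.8. The added 1 compresses low genes, so the distance of Alas2 (log2 change 4.42 with 1 added and 5.08 with 0.1 added) cannot be ranked against those of the more abundant granule genes. The same limit holds for Scn7a (mean 2.01 in primary tumours) and Scnn1b. Scnn1b stood at 0.993, 0, 0.91 and 0 in the primary tumours, with log2 changes of 2.97 to 6.85 over its alternatives. Ngp stood at 762, 448, 2306 and 474 in the metastases of mice 1 to 4 and at 31.7, 14.6, 12.6 and 11.5 in their primary tumours. Its highest primary tumour was that of mouse 1 and its highest metastasis that of mouse 3, as for the globins. The order below these differed. Ngp came next in the metastasis of mouse 1 and the primary tumour of mouse 2, the globin sum in both tissues of mouse 4. Nearest to Alas2 were Nckap5 (0.29), Sec14l4 (0.36) and Sema3g, a semaphorin gene of vessels (0.39). Nckap5 and Sec14l4 had means of only 0.0199 and 0.00881 in primary tumours, against 1.44 for Alas2, so their distances depend on the added 1. Over the alternatives their log2 changes reached 10.62 and 11.12, and that of Alas2 reached 5.7. Sema3g stood at 79.4, 68.4, 263 and 43.1 in the metastases and at 4.29, 1.97, 5.19 and 1.97 in the primary tumours. These distances describe 8 libraries in 2 groups and carry no test.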

How the data were processed

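Total RNA of bulk tumour tissue, purified on RNeasy columns, was made into TruSeq libraries, per the labels' protocols. The authors deposited signal values that they named CPM, with BC column totals of 962401 to 1044330. The genome build was mm9, per the submitters' processing notes; which aligner, counter and annotation were used is not given in the sources used here. Every value was a whole multiple of the smallest in its column within 0.05 reads (100% of values), which recovered the reads. Genes reaching a value of 1 in 4 or more of the 8 BC libraries (14003 of 15465) were tested with limma 3.58.1 (R 4.3.3, intensity trend) on log2(value + 1), group means only; edgeR 4.0.16 (TMM, quasi-likelihood test) and DESeq2 1.42.0 were run on the recovered reads. A gene with every primary tumour under a value of 1 could pass this filter only through its 4 metastases. The test of such a gene is not independent of its selection. The fits were tested on simulated data. The values turned out scaled rather than plain CPM, and the test was kept.

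Same-numbered libraries come from the same mouse, per the titles; deviations from group means correlated at 0.1, -0.15, 0.03 and 0.01 in mice 1 to 4. The members and lists were chosen with earlier results of these data known. Beyond the members, named genes were the 5 nearest in profile to the globins, the 3 nearest to Alas2 and up to 4 of each list with the smallest p. A list of 9 embryonic and other globin genes and the globin chaperone was not analysed here. Some genes of the lists are not reported here by name.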

Additional observations from a re-analysis of the deposited data

Results flagged for a closer look

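Values of the members and of 4 ratios were checked for a library far from the other 3 of its group. Over 20 such groups, 5 values had a gap to the nearest library above Dixon's 95% critical value, where chance flags about 1 in 20 independent groups; these groups are not independent, since the genes move together in the same libraries. Of these, 3 lay in the lung metastasis of mouse 3: Hba-a1 at 1479 (next 289), Hba-a2 at 772 (next 241) and Alas2 at 196 (next 35.9). The other 2 lay in the primary tumour of mouse 1, Hba-a1 at 15.0 (next 6.07) and Slc4a1 at 0.199, or 5 reads; with 0 in the other libraries any read there gives the widest possible gap. That metastasis had the fewest reads, 15447918. On the log2 scale the rises without it are among the ranges given under the processing.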

How the results depend on the processing

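The 4 globin genes and Alas2 stayed higher in lung metastases and past the threshold under every alternative that gave an adjusted p (18 for each globin gene, 17 for Alas2, whose adjusted p in DESeq2 was not given). Their log2 changes ran from 4.65 to 6.22 for Hba-a1, 4.73 to 5.88 for Hba-a2, 4.89 to 5.93 for Hbb-b1, 3.92 to 5.36 for Hbb-b2 and 3.13 to 5.7 for Alas2. The number of genes called, 1279, was 2283 with array weights (1536 higher), 1985 with DESeq2 and 1112 with the mouse as a replicate block, and 711 to 1603 with 1 library left out; it fell by over 1.5 times without the primary tumour of mouse 1 (851), 3 (852) or 4 (711). The block changed no call of a member; beyond the genes named in the report it gave Elane (adjusted p = 0.0478) and Epcam (0.0373) a call. Leaving out 1 library, the log2 difference of the beta to alpha ratio ran from -0.36 to 0.08 and turned positive without the metastasis of mouse 3 (0.08) or the primary tumour of mouse 4 (0.04), and that of Hba-a1 to Hba-a2 ran from -0.35 to 0.06, positive without the metastasis of mouse 1; no ratio passed under any alternative, and under the limit of 4 against 4 libraries 1 ratio alone could not. Paired by mouse as a replicate block, the beta to alpha difference of -0.13 had an adjusted p of 0.5 by exact sign flips. With 4 mice no ratio can reach the threshold by sign flips, so this result decides nothing. The cause of these shifts was not tested. Depth limits Slc4a1, Gata1 and Epor, of which 1 read was worth up to 0.0676.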

Other observations

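Of 6 cancer epithelium markers 1 changed between tissues: Krt19, a keratin of simple epithelium, had values of 123 ± 48 in metastases against 14.1 ± 5.72 in primary tumours (SD, n = 4; adjusted p = 0.000337, limma). Krt8 (736 ± 520 against 951 ± 326, adjusted p = 0.519) and Krt18 (624 ± 402 against 918 ± 260, adjusted p = 0.367), the paired keratins of simple epithelia, did not pass. The sum of the 6 markers was 932 reads per 1000000 in the metastasis of mouse 3, the library with the most globin reads, and 3217 in that of mouse 4, the next one. Of 4 tested mast cell and basophil markers 0 passed in limma, edgeR or DESeq2, and 1 had an unadjusted p under 0.05. Mcpt8, a basophil protease, stood at 9.79 ± 3.06 against 3.55 ± 2.44 (adjusted p = 0.0774).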
